A study of Mus musculus with 8 samples.

Results

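Potassium channels carry the currents that end each heartbeat's action potential and hold the resting membrane potential. This account covers 9 genes for cardiac potassium channel subunits, chosen by name: Kcnv2, Kcnd2, Kcnip2, Kcna5, Kcnj2, Kcnj11, Abcc9, Kcnq1 and Kcnh2. All 9 were present among the 13227 genes of the deposited counts, and all 9 passed the filter on low counts. RNA sequencing was done on hearts labelled as those of male FVB/N mice, an inbred strain, at 3 months of age. The 4 transgenic hearts, with the letters A, B, C and E and genotype TG, overexpressed FASTKD1, a mitochondrial RNA-binding protein. The other 4 hearts, with the letters A, B, D and E and genotype NTG, are labelled non-transgenic. The series title describes the overexpression as cardiac-specific, and neither the promoter that drives it nor the number of founder lines is given in the sources used here. Each heart was taken as 1 animal, from its own letter within a group.

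In the mouse ventricle, repolarization is fast and rests mainly on transient outward and rapidly activating delayed rectifier currents, while the slow and rapid delayed rectifiers that dominate in larger mammals are small. Each channel is built from pore-forming subunits around a common pore, with auxiliary subunits that set how many channels reach the membrane and how they gate. Inward rectifiers hold the resting potential, and ATP-sensitive channels, which join a pore subunit to a sulfonylurea receptor, open when cellular energy falls.

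The pore subunits share a sequence signature. The genes were chosen by name as potassium channel subunits, so a match in the pore genes describes them and tests nothing. Ion selectivity comes from a short stretch of the pore loop whose core is glycine, tyrosine or phenylalanine, and glycine. The longest coding sequence of each gene (GENCODE M21, GRCm38, from the C57BL/6J reference and not from these FVB/N hearts) was searched in frame for 5 codons: threonine or serine, then valine, isoleucine or leucine, then GGN, then TAT, TAC, TTT or TTC, then GGN. Of the 9 genes, 7 held it, each at 1 place, beside 0.689% of the 12332 coding genes searched. Kcnip2 and Abcc9, which encode auxiliary subunits without a potassium pore, held no match. Of these stretches, 6 follow, 5′ to 3′ on the gene's own strand, to show that the silent subunit gene Kcnv2 holds a match to the same pattern as the conducting pores. Capitals mark the 5 filter codons and lower case the 12 bases on each side.
Kcnv2: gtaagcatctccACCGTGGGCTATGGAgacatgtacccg
Kcnd2: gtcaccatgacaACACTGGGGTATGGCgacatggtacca
Kcna5: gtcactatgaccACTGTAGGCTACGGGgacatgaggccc
Kcnh2: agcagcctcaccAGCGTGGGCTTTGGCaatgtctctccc
Kcnj2: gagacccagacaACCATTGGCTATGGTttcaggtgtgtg
Kcnj11: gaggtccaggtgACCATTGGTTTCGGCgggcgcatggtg
The fourth codon is TAT or TAC (tyrosine) in Kcnv2, Kcnd2, Kcna5 and Kcnj2, and TTT or TTC (phenylalanine) in Kcnh2 and Kcnj11. The filter codons lie in coding exons on GRCm38 at chr19:27333654-27333668 (Kcnv2, plus strand), chr6:126533745-126533759 (Kcna5, minus strand), chr5:24325555-24325569 (Kcnh2, minus strand), chr11:111072207-111072221 (Kcnj2, plus strand) and chr7:46099496-46099510 (Kcnj11, minus strand). In Kcnd2 they are split over 2 exons of the plus strand of chromosome 6, beginning at 21217406 and ending at 21714141.

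Total counts ran from 44584359 to 55769859 in the transgenic and from 45802079 to 50830215 in the non-transgenic hearts. Fastkd1 stood at 8845 to 11516 CPM (read counts relative to library size, scaled with edgeR's TMM factors) in the transgenic hearts, against 26.3, 30.2 and 33.8 CPM in the non-transgenic libraries A, B and E and 192 CPM in the library labelled non-transgenic D. Heart D is labelled male but had 0 counts over 4 Y-linked genes, where the other libraries had 10372 to 15914, so its place among the non-transgenic hearts below rests on its label. Atrial genes were high in transgenic heart A: the summed level of 12 measured atrial markers of 14 listed was 155 to 3532 CPM in transgenic hearts, highest in A, and 193 to 787 CPM in non-transgenic hearts, highest in D. Sln was the only one of the defining atrial genes Nppa, Myl4, Myl7 and Sln below 1 CPM in any heart, at 0.0405 CPM in transgenic heart E and 0.0256 and 0.152 CPM in non-transgenic hearts B and E. The 12 ventricular cardiomyocyte markers, all measured, summed to 56460 to 59014 CPM in transgenic and 68678 to 80082 CPM in non-transgenic hearts, without overlap. Of these 12 genes, 11 had a negative log2 fold change, with a median of -0.36. All transgenic hearts were lower for 6 of them, beside 2.8% of all tested genes, and 9 had an unadjusted p under 0.05, beside 10.7%. Only the sarcomere gene Tcap was called, lower (log2 fold change -0.50, edgeR adjusted p = 0.0319). The sums of the 10 endothelial markers were 1296 to 1335 CPM and 1393 to 1647 CPM. Of these 10 genes, 0 were called and their median log2 fold change was -0.05. Only 1 of them did not overlap between the groups, Fabp4. It averaged 382 ± 19.0 CPM in transgenic and 550 ± 141 CPM in non-transgenic hearts (SD, edgeR adjusted p = 0.239). In whole-heart RNA, fewer cells of a type and less RNA per cell cannot be told apart. Of the 13226 tested genes, 1.25% were called, 1.01% higher and 0.242% lower in transgenic hearts (edgeR quasi-likelihood test, Benjamini-Hochberg adjusted p under 0.05). The groups did not overlap for 7.38% of the tested genes, 4.58% with all transgenic hearts higher and 2.8% with all of them lower, and 10.7% had an unadjusted p under 0.05.

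Kcnv2 was the 1 subunit gene of the 9 that passed the test. It encodes Kv8.2, a subunit that forms no channel alone but joins Kv2 pores and changes their gating, best known from photoreceptors. Kcnv2 (ENSMUSG00000047298; chr19:27322588-27337179, plus strand) was at 12.7, 7.60, 10.4 and 13.1 CPM in transgenic hearts A, B, C and E, against 21.6, 25.1, 23.8 and 28.2 CPM in non-transgenic A, B, D and E. Every transgenic heart lay below every non-transgenic heart; 2.8% of all tested genes showed that separation, and 0.242% were called lower. The means were 10.96 ± 2.54 CPM in transgenic and 24.7 ± 2.77 CPM in non-transgenic hearts (± SD over 4 hearts a group). The values rest on 380 to 649 reads per transgenic and 953 to 1483 per non-transgenic library. Kcnv2 fell by 1.17 on the log2 scale (SE 0.17, 95% interval -1.55 to -0.79), a level 0.444 times that of non-transgenic hearts (edgeR adjusted p = 0.00576; exact permutation p on log2 CPM = 0.0286, the smallest that 4 against 4 hearts allow).

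The difference in Kcnv2 was as large without the libraries that stand apart. Without transgenic heart A and the library labelled non-transgenic D it fell by 1.26 (edgeR adjusted p = 0.0136). It passed the threshold in all 18 alternative fits, with values from -1.28 to -1.04.

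**Figure D1:**
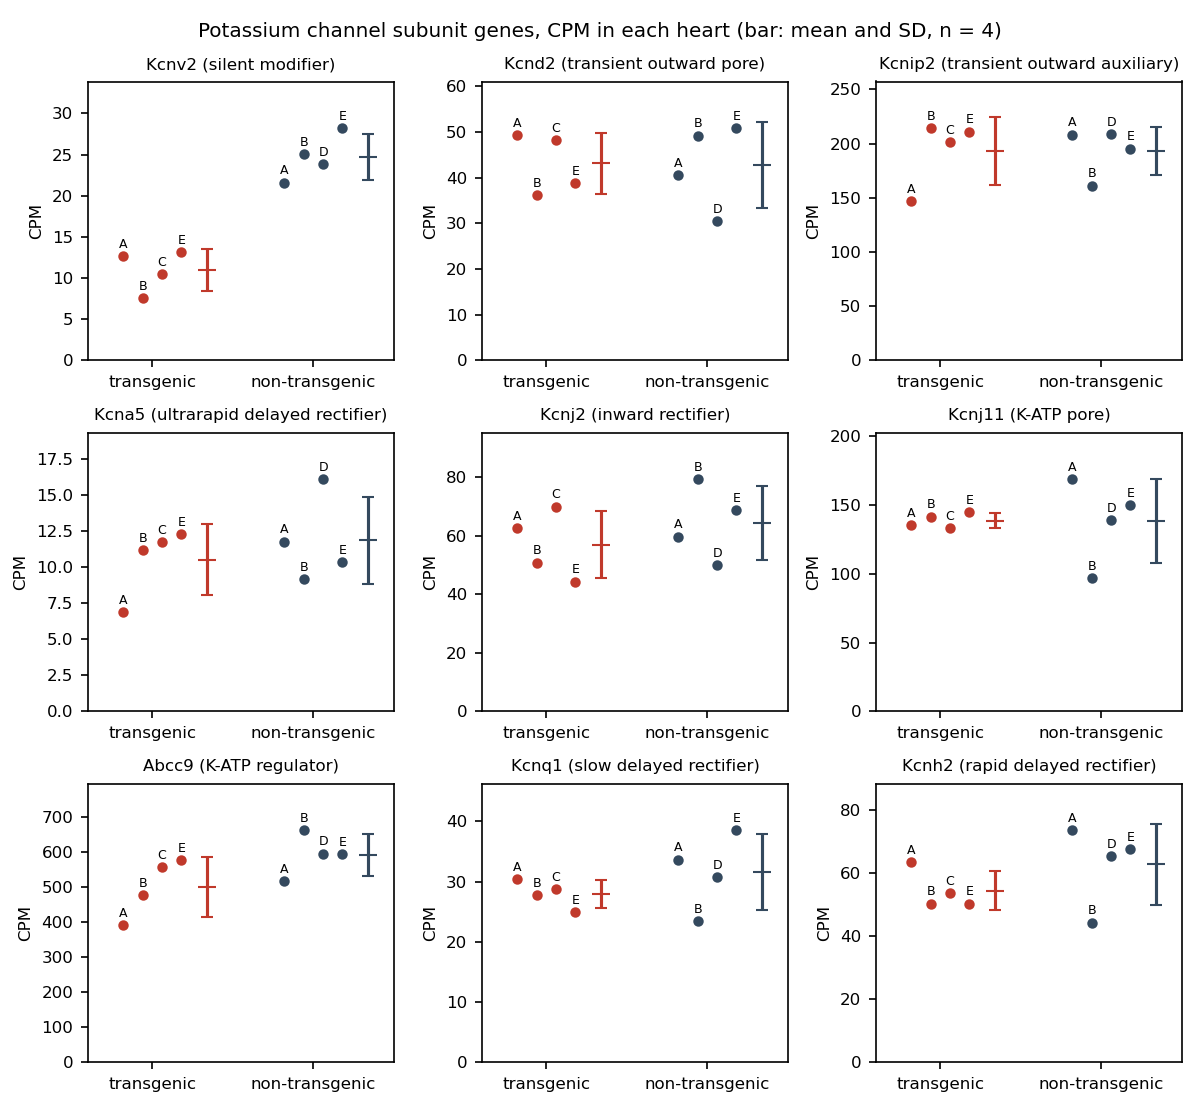
CPM of each of the 9 subunit genes in each heart, transgenic on the left and non-transgenic on the right of each panel; letters name the hearts and the bar gives the mean and SD (n = 4). For Kcnv2 the transgenic hearts sit at 7.60 to 13.1 CPM and the non-transgenic hearts at 21.6 to 28.2 CPM; for the other 8 genes the groups overlap.

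Kcng2, which encodes another silent subunit that joins Kv2 pores, averaged 66.7 ± 2.83 CPM in transgenic and 69.95 ± 13.3 CPM in non-transgenic hearts (± SD over 4 hearts a group), with a log2 fold change of -0.07 (edgeR adjusted p = 0.91).

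The other 8 genes did not pass the test: 0 were called higher or lower by edgeR, beside 1.25% of all tested genes. An unadjusted p under 0.05 was found for 0 of them, beside 10.7% of all tested genes. Counts of 0 among 8 genes are near those shares. In the 18 alternative fits, DESeq2 and limma-voom among them, 0 were called. Their log2 fold changes ran from -0.24 to 0.01 with a median of -0.18, beside a median of 0.01 over all tested genes. The intervals set how large a difference could have gone unseen, and they are given with each gene below.

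The transient outward current in the mouse ventricle runs through Kv4.2, encoded by Kcnd2, with the auxiliary subunit KChIP2, encoded by Kcnip2. Kcnd2 (ENSMUSG00000060882; chr6:21215503-21729805, plus strand) was at 49.4, 36.2, 48.3 and 38.8 CPM in transgenic hearts A, B, C and E, against 40.6, 49.3, 30.6 and 50.9 CPM in non-transgenic A, B, D and E. Its lowest and highest values both came from non-transgenic hearts, and the fold change was 1.01 with an interval of 0.777 to 1.31 (edgeR adjusted p = 0.991). Its direction turned to a log2 fold change of -0.13 without the library labelled non-transgenic D and of -0.06 without transgenic heart A or C, and to -0.01 without non-transgenic heart A.

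Kcnip2 (ENSMUSG00000025221; chr19:45791839-45816061, minus strand) was at 147, 214, 201 and 211 CPM in transgenic hearts A, B, C and E, against 208, 161, 209 and 195 CPM in non-transgenic A, B, D and E. Transgenic heart A and non-transgenic heart B were the low libraries, 1 in each group. The means were 193 ± 31.5 CPM in transgenic and 193 ± 22.3 CPM in non-transgenic hearts (± SD over 4 hearts a group), with a fold interval of 0.809 to 1.24 (edgeR adjusted p = 0.999). The ratio of Kcnip2 to Kcnd2 was 2.98, 5.92, 4.17 and 5.44 in transgenic hearts and 5.13, 3.27, 6.83 and 3.84 in non-transgenic hearts, with a log2 difference of -0.03 (exact permutation p = 0.914, two-sided; also 0.914 after adjustment over the 6 ratios compared, of which 5 are reported).

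Kcnd3, the gene of the related pore Kv4.3, was at 21.5, 20.3, 19.9 and 21.4 CPM in transgenic hearts A, B, C and E, against 15.8, 13.5, 17.1 and 22.2 CPM in non-transgenic A, B, D and E. Non-transgenic heart E lay above all transgenic hearts, and the other 3 non-transgenic hearts lay below them (log2 fold change 0.28, SE 0.14, edgeR adjusted p = 0.541). The ratio of Kcnd3 to Kcnd2 differed by 0.28 on the log2 scale, within the spread between hearts (exact permutation p = 0.314, two-sided; 0.6 after adjustment over 6 ratios). Without non-transgenic heart B it was 0.09, and without the library labelled non-transgenic D it was 0.44.

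Among the delayed rectifiers, Kcna5 encodes Kv1.5, the pore of an ultrarapid current. Kcna5 (ENSMUSG00000045534; chr6:126532551-126535412, minus strand) was at 6.86, 11.2, 11.7 and 12.3 CPM in transgenic hearts A, B, C and E, against 11.8, 9.17, 16.1 and 10.3 CPM in non-transgenic A, B, D and E. The lowest heart, transgenic A, and the highest, the library labelled non-transgenic D, are those with the highest atrial marker sums of their groups; the part of atrial tissue in these values was not tested. The log2 fold change was -0.17 (SE 0.21, fold interval 0.638 to 1.23, edgeR adjusted p = 0.842), and 0.17 without those 2 libraries (edgeR adjusted p = 0.509).

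Kcnq1 encodes the pore of the slow delayed rectifier and Kcnh2 that of the rapid one. Kcnq1 (ENSMUSG00000009545; chr7:143106362-143427042, plus strand) was at 30.4, 27.8, 28.7 and 25.0 CPM in transgenic hearts A, B, C and E, against 33.7, 23.5, 30.8 and 38.6 CPM in non-transgenic A, B, D and E (log2 fold change -0.18, fold interval 0.709 to 1.103, edgeR adjusted p = 0.746). The groups overlapped because non-transgenic heart B lay below all transgenic hearts. The antisense gene Kcnq1ot1 overlaps Kcnq1, and whether counting used strand is not given in the sources used here, so reads of both cannot be told apart with certainty; Kcnq1ot1 was at 1.32 to 4.99 CPM in transgenic and 1.52 to 4.26 CPM in non-transgenic hearts. Kcne1, the beta subunit gene of the slow channel, was low at 1.35 ± 0.341 CPM in transgenic and 2.06 ± 1.01 CPM in non-transgenic hearts (± SD over 4 hearts a group), and the ratio of Kcne1 to Kcnq1 overlapped between the groups (log2 difference -0.38, exact permutation p = 0.4, two-sided; 0.6 after adjustment over 6 ratios). Without the library labelled non-transgenic D that difference was -0.08.

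Kcnh2 (ENSMUSG00000038319; chr5:24319589-24351604, minus strand) was at 63.6, 50.4, 53.6 and 50.4 CPM in transgenic hearts A, B, C and E, against 73.8, 44.3, 65.5 and 67.7 CPM in non-transgenic A, B, D and E. Non-transgenic hearts A, D and E lay above all transgenic hearts and non-transgenic heart B below all of them. The log2 fold change was -0.20 (SE 0.15, fold interval 0.686 to 1.097, edgeR adjusted p = 0.721). Without non-transgenic heart B it was -0.34 (edgeR adjusted p = 0.173), which also misses the threshold.

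Kcnj2 encodes Kir2.1, the main inward rectifier pore of the ventricle. Kcnj2 (ENSMUSG00000041695; chr11:111066164-111076821, plus strand) was at 62.7, 50.8, 69.99 and 44.4 CPM in transgenic hearts A, B, C and E, against 59.7, 79.4, 49.95 and 68.7 CPM in non-transgenic A, B, D and E. The groups overlapped widely (log2 fold change -0.18, SE 0.17, fold interval 0.678 to 1.153, edgeR adjusted p = 0.8). Kcnj12, the gene of the related pore Kir2.2, was at 21.6, 22.2, 21.7 and 17.5 CPM in transgenic hearts A, B, C and E, against 29.1, 20.4, 25.8 and 30.6 CPM in non-transgenic A, B, D and E (log2 fold change -0.35, SE 0.14, unadjusted p = 0.0301, edgeR adjusted p = 0.394). The ratio of Kcnj12 to Kcnj2 differed by -0.16 on the log2 scale (exact permutation p = 0.571, two-sided; 0.686 after adjustment over 6 ratios). Without non-transgenic heart B it was -0.38, and without the library labelled non-transgenic D it was -0.05.

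The cardiac ATP-sensitive channel joins the pore Kir6.2, encoded by Kcnj11, to the sulfonylurea receptor SUR2, encoded by Abcc9. Kcnj11 (ENSMUSG00000096146; chr7:46093953-46100764, minus strand) was at 135, 142, 133 and 145 CPM in transgenic hearts A, B, C and E, against 169, 96.9, 139 and 150.1 CPM in non-transgenic A, B, D and E. The transgenic hearts lay within a narrow band inside the range of the non-transgenic hearts, with coefficients of variation of 3.92% in transgenic and 22.0% in non-transgenic hearts; the difference in spread was not tested. The log2 fold change was 0.00 (SE 0.15), with a fold interval of 0.794 to 1.26 (edgeR adjusted p = 0.9997).

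Abcc9 (ENSMUSG00000030249; chr6:142587862-142702315, minus strand) was at 391, 477, 557 and 577 CPM in transgenic hearts A, B, C and E, against 517, 663, 596 and 594 CPM in non-transgenic A, B, D and E. Non-transgenic heart A fell among the transgenic hearts, and the other 3 non-transgenic hearts lay above them. The log2 fold change of -0.24 (SE 0.14, 95% interval -0.54 to 0.06) had the second-smallest p of the 9 genes and did not pass (edgeR adjusted p = 0.595). Abcc9 is also expressed in pericytes and smooth muscle; the 11 measured mural markers of 12 listed summed to 851 to 1131 CPM in transgenic and 742 to 1145 CPM in non-transgenic hearts, and their part in the Abcc9 values was not tested.

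The ratio of Abcc9 to Kcnj11 was 2.89, 3.37, 4.18 and 3.99 in transgenic hearts A, B, C and E, against 3.06, 6.84, 4.29 and 3.96 in non-transgenic A, B, D and E. Non-transgenic heart B alone lay above 5, and the groups overlapped (log2 difference -0.28, exact permutation p = 0.371, two-sided; 0.6 after adjustment over 6 ratios). Without non-transgenic heart B the log2 difference was -0.06. On 1 side, each of these 2 genes lies next to the gene of an alternative subunit of ATP-sensitive channels. Kcnj8 (Kir6.1), next to Abcc9, averaged 26.9 ± 4.03 CPM in transgenic and 29.3 ± 0.882 CPM in non-transgenic hearts, and Abcc8 (SUR1), next to Kcnj11, averaged 49.2 ± 2.02 CPM and 40.9 ± 7.56 CPM (± SD over 4 hearts a group), with edgeR adjusted p = 0.796 for Kcnj8 and 0.512 for Abcc8.

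**Figure D2:**
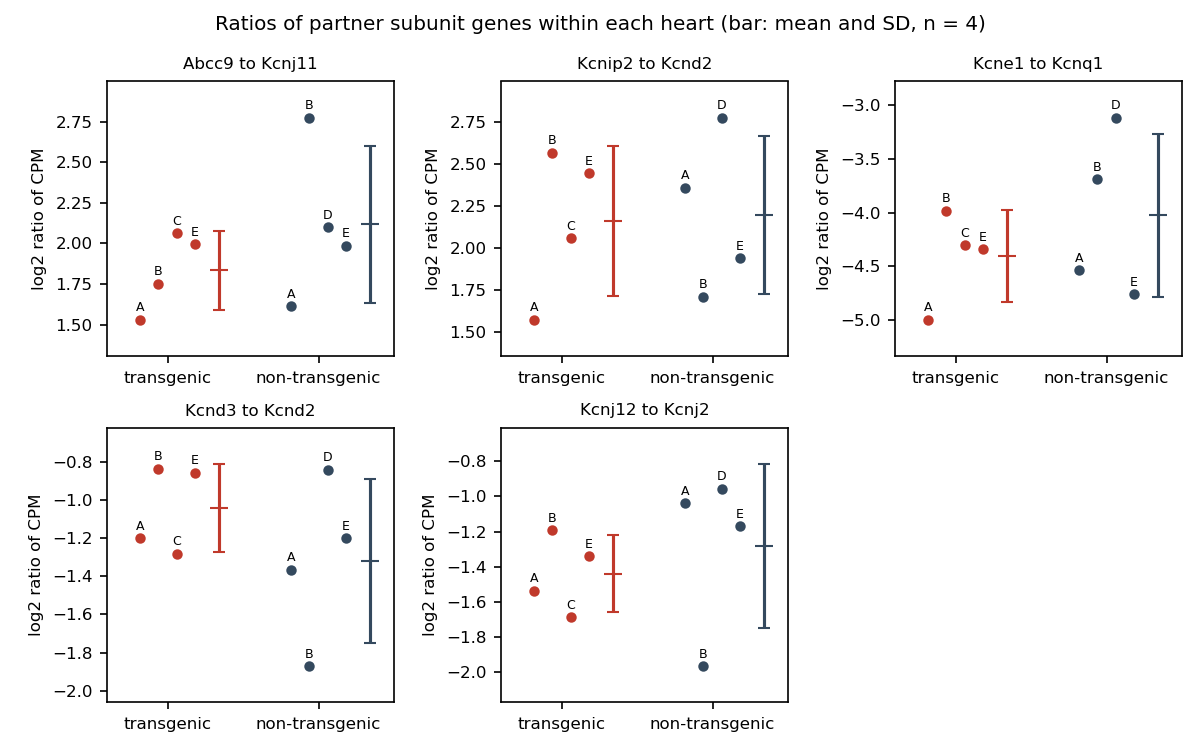
Log2 ratio of CPM of 5 pairs of partner subunit genes within each heart, transgenic on the left and non-transgenic on the right; letters name the hearts and the bar gives the mean and SD (n = 4). The groups overlap for all 5 pairs, with log2 differences from -0.38 (Kcne1 to Kcnq1) to 0.28 (Kcnd3 to Kcnd2).

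Levels were compared between genes only per length, as CPM per kb of merged exons. Abcc9 was highest at 59.8 ± 10.1 in transgenic and 70.8 ± 7.12 in non-transgenic hearts, followed by Kcnip2 at 55.7 ± 9.05 and 55.6 ± 6.43 and Kcnj11 at 37.7 ± 1.48 and 37.7 ± 8.29 (CPM per kb, SD, n = 4 each). Abcc9 and Kcnip2 lay within each other's SD in transgenic hearts. A wide gap separated these 3 genes from Kcnh2 at 11.3 ± 1.29 and 13.0 ± 2.65, Kcnj2 at 10.5 ± 2.12 and 11.8 ± 2.31, Kcnd2 at 8.38 ± 1.29 and 8.31 ± 1.82 and Kcnq1 at 6.84 ± 0.557 and 7.73 ± 1.54 CPM per kb in transgenic and non-transgenic hearts. Kcnh2 and Kcnj2 lay within 1 SD of each other in both groups. The order of Kcnd2 and Kcnq1 turned in both groups when the longest transcript was taken as the length, with Kcnq1 at 9.24 in transgenic and 10.4 CPM per kb in non-transgenic hearts and Kcnd2 as before. The last places went to Kcna5, at 3.67 ± 0.865 in transgenic and 4.14 ± 1.06 CPM per kb in non-transgenic hearts, and Kcnv2, at 2.15 ± 0.497 and 4.83 ± 0.542 CPM per kb. Kcnv2 was thus the lowest of the 9 in transgenic hearts, below Kcna5, while in non-transgenic hearts it stood above Kcna5 within the SD of Kcna5. The auxiliary gene Kcnip2 stood well above its pore gene Kcnd2 in both groups.

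**Figure D3:**
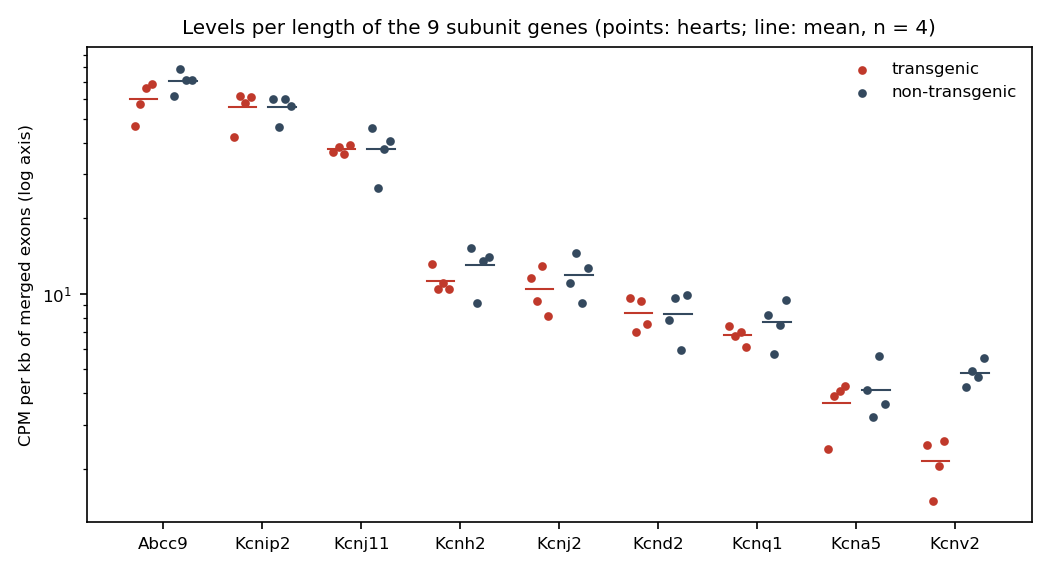
Level of each of the 9 genes in CPM per kb of merged exons on a log axis, one point per heart, with a line at the mean (n = 4); transgenic hearts are on the left of each pair and non-transgenic hearts on the right. Abcc9, Kcnip2 and Kcnj11 lie well above the other 6 genes, and only the points of Kcnv2 are separate between the groups.

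Part of the spread among non-transgenic hearts followed base composition. Non-transgenic heart B was the lowest of its group for 5 of the 9 genes, Kcnip2, Kcna5, Kcnj11, Kcnq1 and Kcnh2, all with over 54% GC in their longest transcript (54.3% to 61.3%). It was the highest for Kcnj2 (41.2% GC) and Abcc9 (46.2% GC). Over all genes, the median log2 deviation of heart B from the mean of the 8 libraries was -0.31 for the 4405 genes with the highest GC content and 0.21 for the 4405 with the lowest. That difference was -0.52 in heart B, against -0.06 to 0.09 in the transgenic hearts and 0.06 to 0.17 in non-transgenic hearts A, D and E.

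An offset for GC content, added after these values were seen, narrowed the non-transgenic spread of the GC-rich genes. The SD of log2 CPM over non-transgenic hearts was 0.05 with the offset and 0.33 without it for Kcnh2, and 0.15 and 0.35 for Kcnj11. For Kcnip2 it was 0.06 with the offset and 0.18 without it. The change was smaller for the GC-rich Kcna5 (0.30 with it, 0.35 without). It was also smaller for genes lower in GC such as Kcnj2 (0.20 with it, 0.29 without) and Kcnv2 (0.14 with it, 0.16 without). Over transgenic hearts the offset widened the SD for Kcnh2 (0.22 with it, 0.16 without) and Kcnq1 (0.16 with it, 0.12 without). With the offset, Kcnv2 still fell by 1.19 (edgeR adjusted p = 0.00348), and the other 8 genes still did not pass, with edgeR adjusted p from 0.327 (Kcnh2, log2 fold change -0.26) to 0.962 (Kcnip2, -0.02).

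**Figure D4:**
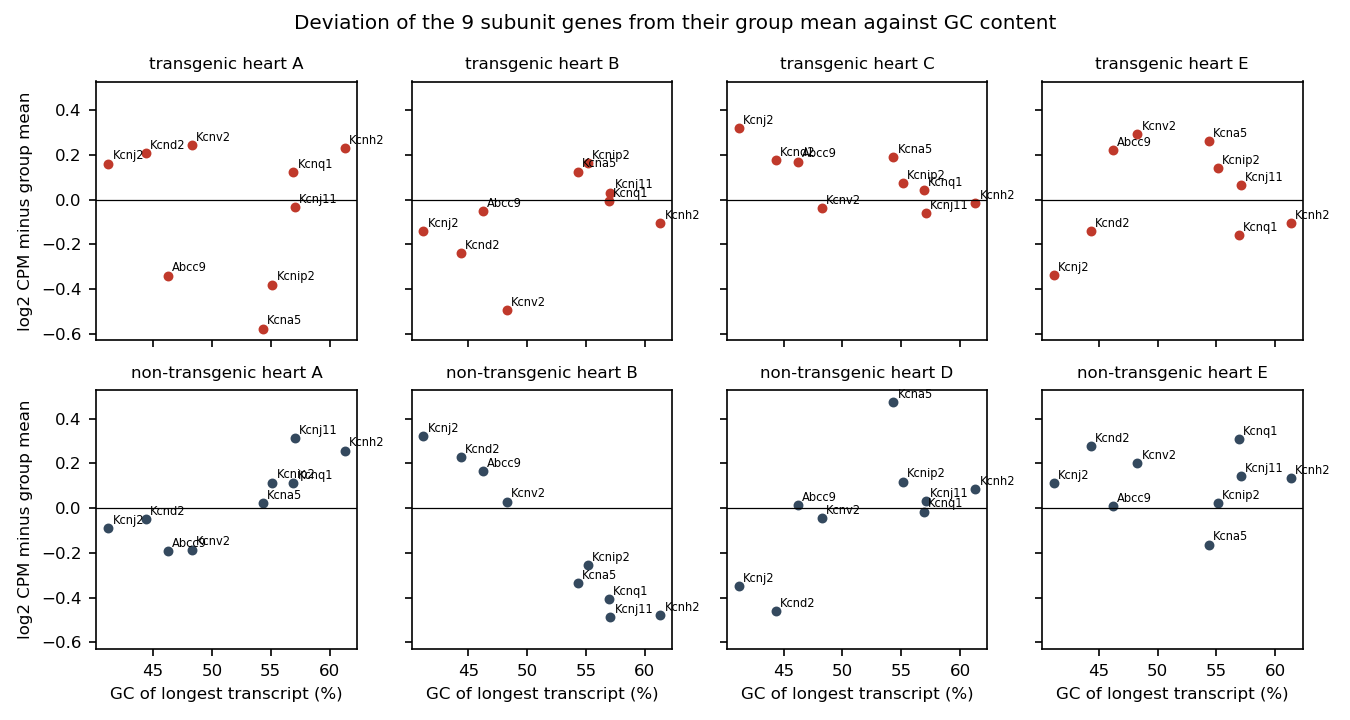
Deviation of log2 CPM of each of the 9 genes from the mean of its own group, plotted against the GC content of its longest transcript, one panel per heart, with transgenic hearts in the top row. In non-transgenic heart B the 5 genes above 54% GC lie below 0 and the other 4 above 0.

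Of 58 other genes of potassium channel pores and auxiliary subunits listed, 33 were measured. None of the 33 passed the threshold with edgeR, beside 1.25% of all tested genes, and 5 had an unadjusted p under 0.05, beside 10.7%. DESeq2 called 1, Kcnj4, higher, and over all tested genes it called 249 higher and 159 lower. All transgenic hearts were higher for 2 of the 33, Kcnj4 and Kcna1, beside 4.58% of all tested genes. The median log2 fold change of the 33 was 0.01, with 17 positive and 16 negative. Kcnj4, which encodes the inward rectifier pore Kir2.3, was at 3.20, 2.82, 2.06 and 3.22 CPM in transgenic hearts A, B, C and E, against 1.86, 0.973, 0.797 and 1.67 CPM in non-transgenic A, B, D and E. The groups did not overlap (log2 fold change 1.09, SE 0.28, edgeR adjusted p = 0.142). Next by p were Kcnj12, given above, and the voltage-gated genes Kcnq5 at 1.07 (SE 0.45) and Kcna1 at 0.59 (SE 0.25) and the calcium-activated channel gene Kcnn1 at 0.30 (SE 0.12), on the log2 scale with edgeR adjusted p of 0.429 to 0.43. The leak channel gene Kcnk3 was the highest of the 33 per length, at 63.9 CPM per kb in transgenic and 64.9 CPM per kb in non-transgenic hearts.

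**Figure D5:**
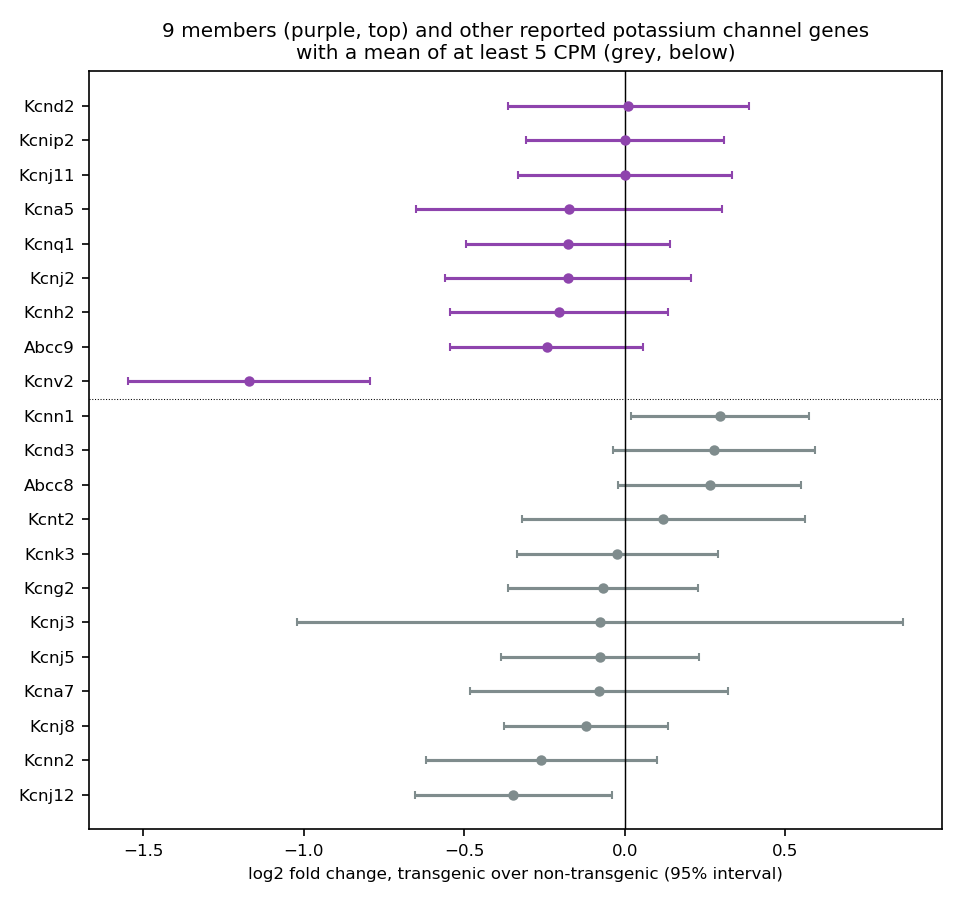
Log2 fold change, transgenic over non-transgenic, with its 95% interval, for the 9 subunit genes (purple, top) and other reported potassium channel genes with a mean of at least 5 CPM (grey, below). The interval of Kcnv2, -1.55 to -0.79, lies apart from 0, and those of the other 8 genes include 0.

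Kcnj3, which encodes the pore of the acetylcholine-gated channel of atrial and nodal cells, depended on 1 library. It was at 129.7, 32.2, 34.3 and 32.7 CPM in transgenic hearts A, B, C and E, against 54.5, 56.0, 61.7 and 69.0 CPM in non-transgenic A, B, D and E. Transgenic heart A was the highest of all 8 and the other 3 transgenic hearts were the lowest. Over all 8 hearts the difference was -0.08 on the log2 scale (SE 0.42, edgeR adjusted p = 0.971), and without transgenic heart A Kcnj3 fell by 0.87 (edgeR adjusted p = 0.00345). Nppa, an atrial peptide gene, was at 858 CPM and the atrial light chain gene Myl4 at 1289 CPM in transgenic heart A, against 17.4 to 50.6 CPM and 1.46 to 104 CPM in the other 3 transgenic hearts; the part of atrial tissue in the Kcnj3 value was not tested.

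Among 17 measured sodium, calcium and pacemaker channel and gap junction genes of 19 listed, edgeR called 0, and 5 had an unadjusted p under 0.05, beside 10.7% of all tested genes. Their log2 fold changes were positive for 6 and negative for 11, and ran from -1.03 to 0.66. All transgenic hearts were higher for 1 of the 17 and lower for 0, beside 4.58% and 2.8% of all tested genes. DESeq2 called 2 lower, Scn4b and Scn10a, beside 159 lower over all tested genes. Scn4b, a sodium channel beta subunit gene, was at 49.9, 39.3, 59.0 and 67.1 CPM in transgenic hearts A, B, C and E, against 148, 106.9, 66.4 and 119.5 CPM in non-transgenic A, B, D and E. The groups overlapped only through the library labelled non-transgenic D, which lay just below transgenic heart E. Scn4b differed by -1.03 on the log2 scale (SE 0.24, edgeR adjusted p = 0.0777), and without that library -1.22 (edgeR adjusted p = 0.0109). Scn10a and Cacnb2, a calcium channel beta subunit gene, did not pass: the log2 fold change was -0.77 for Scn10a (edgeR adjusted p = 0.173) and -0.32 for Cacnb2 (edgeR adjusted p = 0.348). Of 16 transcription factor genes known to act on cardiac channel genes, all measured, edgeR called 0, beside 1.25% of all tested genes, and DESeq2 called 0. An unadjusted p under 0.05 was found for 0, beside 10.7% of all tested genes. The smallest p were those of Mef2c (log2 fold change -0.17), Irx3 (-0.28) and Hey2 (0.34), with edgeR adjusted p of 0.583 to 0.722.

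The genes whose pattern over the 8 hearts was most like that of Kcnv2 were taken as the 5 of 13217 with the highest Pearson correlation of log2 CPM, which is a description of likeness and not a test, since the 2 groups form separate clusters. They were Rbmxl1 (0.961), Scube2 (0.952), Taz (0.95), Gm24474 and D3Ertd751e (both 0.946). Scube2 fell by 0.52 (SE 0.11, edgeR adjusted p = 0.0483) and Gm24474 by 1.44 (SE 0.19, edgeR adjusted p = 0.00274), while Rbmxl1, Taz and D3Ertd751e did not pass, at -0.19, -0.16 and -0.44 on the log2 scale. For Abcc9 the closest 5 were Gm15283 (0.985), Zfp715 (0.969), Ifi203 (0.96), Ceacam1 (0.955) and Gas2 (0.954), none of which passed with edgeR (adjusted p of 0.64 to 0.812).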

How the data were processed

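The values deposited by the authors were raw whole-number counts for each Ensembl gene, in a separate table for every heart. The tools named in the submitters' processing notes were cutadapt 1.15 and TopHat2, and the builds GRCm38 and mm10 are names of the same assembly; the counter, annotation release and use of strand are not given in the sources used here. Symbols, positions and exon lengths came from GENCODE M21 (12 of 13227 identifiers had no entry). Counts were fitted with edgeR 4.0.16 in R 4.3.3 (filterByExpr, which kept 13226 genes, TMM, glmQLFit and glmQLFTest, two-sided, Benjamini-Hochberg over all tested genes, threshold 0.05). Each SE was derived from the F statistic, as the size of the log2 fold change over the root of F, and intervals are at the 95% level with the fit's degrees of freedom. Logarithms of single libraries used a prior count of 2. For ratios and single genes, the exact permutation test ran through all 70 ways to split 8 libraries into groups of 4. On simulated counts for 13226 genes, 18% of the 50 genes given a 1.5-fold change were called, 80% of the 50 with a 2-fold and 98% of the 50 with a 4-fold change, and 8 of 156 calls were false. Alternatives used DESeq2 1.42.0, limma 3.58.1, other scalings and filters, left-out libraries, a block on title letters and a GC offset in 20 bins (13215 genes had a GC value). Libraries within a group differed well beyond counting noise (the chi-square statistic over its degrees of freedom was at least 19.7). P-values set the difference between the groups against the spread between these hearts. The members, gene lists and the choice of libraries to leave out were made with earlier results of these data known. The genes named were the 9 members, Fastkd1, partner genes of the ratios, the defining atrial genes, the up to 3 genes with the smallest p of each channel, regulator or cell type marker list, and the 5 most alike of the 2 members with the smallest p; Kcng2, Kcnk3, Kcnj3, Kcnj8, Kcnq1ot1 and the neighbours of Kcnv2 were chosen after their values were seen. The values of 1 partner gene, its ratio and 1 filter stretch are not reported here.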

Additional observations from a re-analysis of the deposited data

Results flagged for a closer look

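In groups of 4 hearts, 9 of 146 checks found a heart far from the other 3, where chance gives about 1 in 20. The number found is near that share, and the checks all draw on the same 8 libraries. Transgenic heart A stood apart in 5 of them: low for Kcnip2 (147 CPM), Kcna5 (6.86 CPM), the voltage-gated channel gene Kcnq5 (0.477 CPM) and the endothelial receptor gene Kdr (146 CPM), and high for Kcnj3 (129.7 CPM). Transgenic heart E stood low for Kcnj12 (17.5 CPM) and transgenic heart C for the sarcomere gene Tcap (652 CPM). Non-transgenic heart B stood low for the beta subunit gene Kcnab2 (0.768 CPM), and the library labelled non-transgenic D high for Fastkd1 (192 CPM).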

How the results depend on the processing

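Kcnv2 passed the threshold under all 18 alternative fits and no other of the 9 genes passed under any, so the count of members called stayed at 0 higher and 1 lower. The log2 fold changes of Kcnip2 and Kcnj11, 0.00 in the reported fit, turned slightly negative, at -0.0049 and -0.0045 with DESeq2 size factors or the DESeq2 test, -0.010 and -0.0089 with upper quartile scaling, -0.0022 and -0.0013 with a minimum of 5 CPM in 4 libraries, and -0.021 and -0.026 with the GC offset; Kcnip2 did so too with limma-voom (-0.0078) and as a difference of mean log2 CPM (-0.0078). Kcnd2 was -0.19 without transgenic heart A and the library labelled non-transgenic D, and -0.19 with the replicate block, and Kcna5 was 0.17 without those 2 hearts. Leaving out 1 library gave -0.13 to 0.090 for Kcnd2, -0.077 to 0.11 for Kcnip2, -0.28 to 0.0049 for Kcna5, -0.14 to 0.11 for Kcnj11 and -0.20 to 0.16 for the log2 ratio of Kcnip2 to Kcnd2. The log2 differences of the other reported ratios ran from -0.45 to -0.06 for Abcc9 to Kcnj11, -0.62 to -0.08 for Kcne1 to Kcnq1, 0.09 to 0.44 for Kcnd3 to Kcnd2 and -0.38 to -0.05 for Kcnj12 to Kcnj2. Without transgenic heart A and the library labelled non-transgenic D, the log2 difference was 0.35 for Kcnip2 to Kcnd2 and 0.12 for Kcne1 to Kcnq1. A comparison of 3 against 3 hearts cannot give an exact p under 0.1. Of the 6 lists of other channel genes and regulators, 0 genes passed in the reported fit; DESeq2 called 1 higher and 2 lower, the replicate block 1 lower (Scn4b), and leaving out transgenic heart A and the library labelled non-transgenic D 3 lower (Kcnj3, Scn4b and Kcnk1), while leaving out 1 library gave 0 to 1. The cause was not tested.

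Over all tested genes, calls lower were 32 in the reported fit, 159 with DESeq2, 57 with the GC offset and 21 with the replicate block. They were 106 without transgenic heart A and the library labelled non-transgenic D. Calls higher were 249 with DESeq2 and 133 in the reported fit. Leaving out 1 library gave 9 to 72 lower. Calls lower were 9, 14 and 10 without transgenic heart B, transgenic heart C and non-transgenic heart A. They were 50 and 72 without non-transgenic heart B and the library labelled non-transgenic D. Title letters A, B and E occur in both groups. The correlation of their hearts' deviations over genes was 0.297 for A, 0.36 for E and -0.085 for B. For hearts with unlike letters it ran from -0.438 (transgenic A with non-transgenic E) to 0.448 (transgenic C with non-transgenic E). The letters were therefore not taken as pairs. With the replicate block Kcnv2 fell by 1.19 (edgeR adjusted p = 0.0391). The longest transcript in place of merged exons changes the level of a gene by the same factor in both groups. With it, Kcnip2 was at 62.1 and Kcnj11 at 44.2 CPM per kb in both groups. In transgenic and non-transgenic hearts, Abcc9 became 66.8 and 79.0 and Kcnh2 12.9 and 14.9 CPM per kb. Kcnq1 became 9.24 and 10.4 CPM per kb, above Kcnd2 in both.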

Other observations

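The genes next to Kcnv2 on chromosome 19 did not pass the test. Vldlr, a lipoprotein receptor gene 68.4 kb before it, averaged 434 ± 29.9 CPM in transgenic and 506 ± 69.5 CPM in non-transgenic hearts (± SD over 4 hearts a group), with a log2 fold change of -0.22 (SE 0.11, edgeR adjusted p = 0.547). Pum3, 51.5 kb after it, averaged 35.8 ± 8.42 CPM and 28.5 ± 5.28 CPM, with a log2 fold change of 0.33 (SE 0.18, edgeR adjusted p = 0.572).

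Acta2, the smooth muscle actin gene and 1 of the mural markers, was at 222, 259, 375 and 210.3 CPM in transgenic hearts A, B, C and E, against 107.6, 173, 134 and 109.2 CPM in non-transgenic A, B, D and E, without overlap (log2 fold change 1.03, SE 0.21, edgeR adjusted p = 0.0505). All transgenic hearts were higher for 4.58% of all tested genes. Acta2 was the only 1 of the 11 measured mural markers without overlap. Of these 11, 5 had a positive and 6 a negative log2 fold change, with a median of -0.03, and 0 were called, beside 1.25% of all tested genes.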
